A study of Rattus norvegicus with 24 samples.

Results

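Retnla and 9 other genes of type 2 immunity were described across rat lung. They were chosen by name, from values of all 24 samples seen by letter and by number, and make up 10 of the 30667 genes in the table: Retnla, Arg1, Il33, Il1rl1, Il4ra, Il13ra2, Clca1, Tslp, Gata3 and Il5ra. Because these values chose them, their levels are given as a description with no test. An SE printed for any of the 10 describes spread between samples and is not to be read as a test. Counts of the 10 that passed a fit appear only at the close, to show stability, and are not read as a result. The samples are 24 pieces of lung tissue from Rattus norvegicus, profiled by mRNA sequencing in a series on a lung cancer model induced with smoky coal. Each title is a letter followed by a number, such as A2, with the letters A, B, C and G and the numbers 1 to 6, so 6 samples share a letter and 4 share a number. All 24 carry the label smoky coal. The labels state no strain, age, dose, time or control, do not say what a letter or a number stands for, and do not say that samples came from separate animals, so p-values measure the spread between these samples, which may be technical.

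Type 2 immunity is the response to worms, allergens and tissue damage. Damaged epithelium and stroma release alarmins such as IL-33 and TSLP, which act on group 2 innate lymphoid cells, T helper cells and mast cells. These make IL-4, IL-5 and IL-13, which switch macrophages to an alternatively activated state marked by Arg1 and Retnla, drive mucus in airway epithelium and call in eosinophils. In lung, Retnla, which encodes the secreted protein RELM-alpha, is made by macrophages and by airway and alveolar epithelium.

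Values are normalized read counts per gene, hereafter normalized counts, with a sum per sample between 61717516 and 66007148. They are not divided by gene length, so levels are compared between samples and not between genes. The number of reads is unknown. The submitters' processing notes name GRCm38, a mouse build, for these rat samples, and 37.6% of the gene names have a form used for mouse gene models. How this affects a gene's level was not tested, and reads shared by close relatives such as Retnla and Retnlg may be split in a way the sources used here do not give. The lung markers were present: the 4 alveolar type 2 markers summed to 1049000 to 1562000 normalized counts and the 4 alveolar type 1 markers to 152100 to 255200. Some samples stood apart before any comparison. A4 held 15620 normalized counts over 5 oesophagus markers, where no other sample exceeded 498, and 68280 over 5 skeletal muscle markers, followed by B4 with 17740. A2 and A4 held 16390 and 9688 over 6 adipocyte markers. In tissue, fewer cells of a type and less RNA per cell cannot be told apart.

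**Figure D1:**
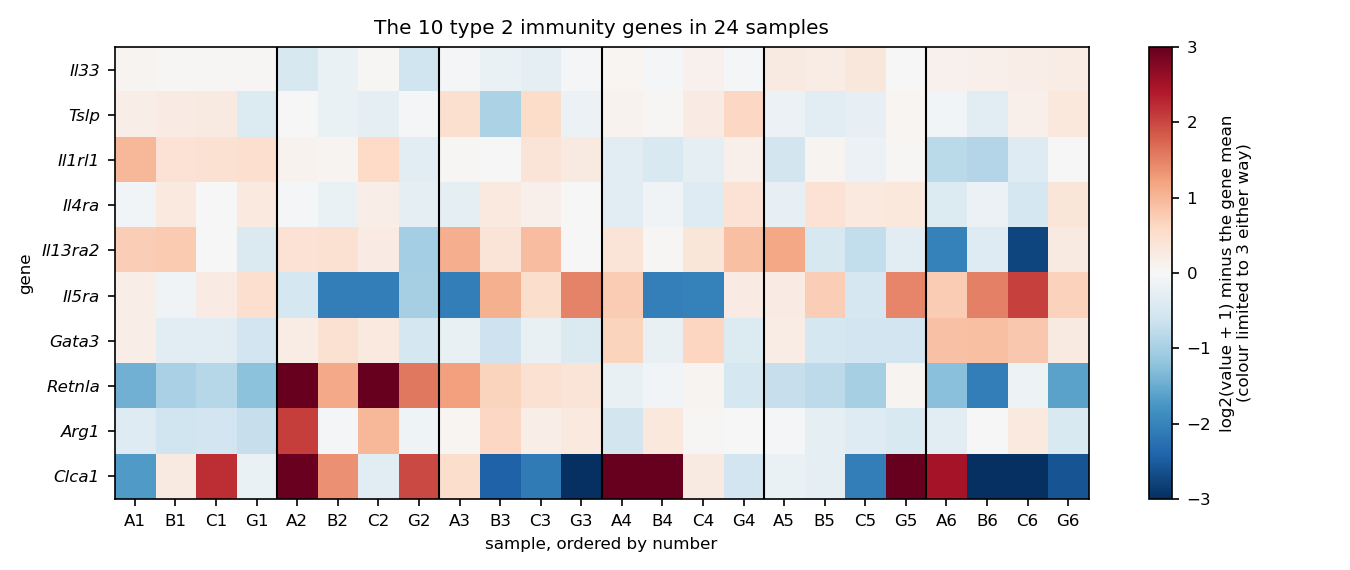
Levels of the 10 genes (rows) in the 24 samples (columns, ordered by number and letter), coloured by the log2(value + 1) of the normalized count after subtracting the average of the gene. Within each letter Retnla is highest in number 2 and Gata3 in number 6, and the high values of Clca1 are scattered over numbers and letters.

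The letters separated most of the 10 genes little. Letters accounted for 4.23% of the variance of log2 Retnla between samples and numbers for 81.5%. Over the 10 genes the median shares were 6.85% for letters and 48.2% for numbers, and over all 30667 genes 9.45% and 37.1%. With 6 numbers and 4 letters, numbers take a larger share even by chance. Il4ra (29.5%), Gata3 (25.1%), Tslp (18.0%) and Clca1 (13.3%) lay above the letter median of all genes and the rest of the 10 below it. In Il4ra and Tslp the letter share exceeded that of numbers, 20.5% and 17.1%. In a limma F test over the 4 letters, 0.00652% of all genes had an adjusted p-value under 0.05. The share of all genes called was 0 in B against A, 0 in C against A, 0 in C against B, 0.00652% in G against A, 0.00326% in G against B and 0.00652% in G against C. This model held the letters only, so differences between numbers counted as spread within a letter and made calls harder. With the number as a block, 1.27% of all genes were called in G against A. The 10 genes were chosen on these values, so whether they passed is not read as a result. The median log2 difference of the 10 genes between G and A was -0.222, and that of all genes -0.00537.

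Numbers separated samples more in the table at large. In the limma F test over the 6 numbers, with the letter as a covariate, 31.5% of all genes were called. Against the mean of the other 5 numbers, 11.9% of all genes were called for number 1, 21.8% for number 2, 4.98% for number 3, 4.74% for number 4, 1.97% for number 5 and 8.13% for number 6. These 6 contrasts share samples, so they are not independent of each other.

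Retnla was highest in number 2 and next highest in number 3, in each of the 4 letters. The number 2 samples held 11055 normalized counts in A2, 1620 in B2, 7887 in C2 and 2212 in G2, a mean of 5694 ± 4556 (SD, n = 4). Those numbered 3 held 1742 in A3, 1174 in B3, 1025 in C3 and 962 in G3. A2 and C2 stood far above the rest, while B2 lay under A3, so the numbers overlapped. Number 4 held 517 to 790 normalized counts, number 5 held 369 to 784, number 6 held 175 to 672 and number 1 held 272 to 411. Number 3 lay above these 4 numbers with no overlap, and number 4 above number 1, while numbers 5 and 6 overlapped both. The geometric mean of number 2 was 8.02 times that of the other numbers, with an SE of 0.33 on the log2 scale, and over all samples Retnla ranged 63.0-fold, from 175 in B6 to 11055 in A2. By letter, A averaged 2411 ± 4270 normalized counts, B 745 ± 550, C 1859 ± 2963 and G 838 ± 727 (SD, n = 6). B, the lowest, spanned 175 to 1620 and A, the highest, 272 to 11055, so the letters overlapped.

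A close relative of Retnla ran with it. Retnlg, which encodes RELM-gamma, a protein found in neutrophils and bone marrow, held 3970 normalized counts in A2, 693 in B2, 3004 in C2 and 885 in G2. In the other 20 samples it held 231 to 951, so B2 and G2 lay within their range. Retnlg rose in number 2 by a log2 fold change of 1.85 (SE 0.32, limma adjusted p = 0.000336) and fell by 1.23 in number 1 (adjusted p = 0.0156). Over the 24 samples the log2 levels of Retnla and Retnlg correlated with r = 0.916, and with r = 0.760 over the 20 samples not numbered 2. Samples of a number resemble each other, so these points are not independent. Retnlb, made by goblet cells of the gut, held 18.7 to 123 normalized counts and did not pass the threshold over the numbers (limma adjusted p = 0.0654). Retn, which encodes resistin, an adipocyte product in rodents, held 206 normalized counts in A2, 137 in A4 and at most 34.3 elsewhere. A2 and A4 are the pair with the highest adipocyte sums, and the limma adjusted p of Retn over the numbers was 0.971. The correlations of Retnla with Retnlb and Retn were r = -0.00197 and r = 0.202.

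Promoters of Retnla and Retnlg are shown because these neighbours ran together. In RefSeq on rat build GRCr8 both lie on the minus strand of chromosome 11, with starts 30.5 kb apart, and Retnlb lies 22.1 kb from Retnla on the other side. The windows, read 5′ to 3′ on the gene's strand, run from 250 bases before to 50 bases after the start, at chr11:65426137-65426436 for Retnla and chr11:65395590-65395889 for Retnlg. Capitals mark the stretch that a local alignment matched between them.
Retnla: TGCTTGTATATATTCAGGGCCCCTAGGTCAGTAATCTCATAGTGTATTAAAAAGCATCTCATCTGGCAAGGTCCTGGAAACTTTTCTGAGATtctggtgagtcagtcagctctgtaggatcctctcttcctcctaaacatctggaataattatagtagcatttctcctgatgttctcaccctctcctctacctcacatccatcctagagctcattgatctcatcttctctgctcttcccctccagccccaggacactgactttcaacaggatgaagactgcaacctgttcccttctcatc
Retnlg: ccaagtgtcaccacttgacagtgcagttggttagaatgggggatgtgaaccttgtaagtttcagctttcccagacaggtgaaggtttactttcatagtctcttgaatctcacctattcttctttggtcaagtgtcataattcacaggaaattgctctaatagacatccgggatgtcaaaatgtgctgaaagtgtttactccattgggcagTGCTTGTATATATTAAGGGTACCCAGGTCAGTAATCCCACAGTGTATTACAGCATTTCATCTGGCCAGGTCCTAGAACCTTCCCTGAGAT
The matched stretch spans 92 columns with 77 identical (83.7%). It lies at -250 to -159 from the start in Retnla and at -40 to 49 in Retnlg, so the 2 windows share letters at different distances from their annotated starts. A stretch of Retnla at -173 to -141 likewise matched Retnlb at 12 to 46 (80.0% of 35 columns). Any bases of Retnla that match Retnlg before -40 thus lie outside the Retnla window and were not searched for motifs. Whether the annotated start of Retnla is the one used in lung was not tested. RefSeq promoters were matched for 7 of the 10 genes. The motif TTCNNNNGAA, bound by STAT6 and searched on both strands, was found in the Retnlg window at -111 and among the 7 genes in that of Il1rl1, at -198. It was found in 7.28% of all 33469 promoter windows. The C/EBP motif TTGCNNAA was in the windows of 3 of the 7 (Il33, Clca1 and Il5ra) and in 10.6% of all windows, and TTCNNNGAA, bound by STAT5, was in 0 of the 7 and in 8.87% of all. Counts over the 7 take a gene as matched if any of its windows held the motif, and Il33 and Tslp had more than a single window. The shares over all are per window, so the 2 measures are not strictly alike. A match is a description of letters and no site of binding.

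**Figure D2:**
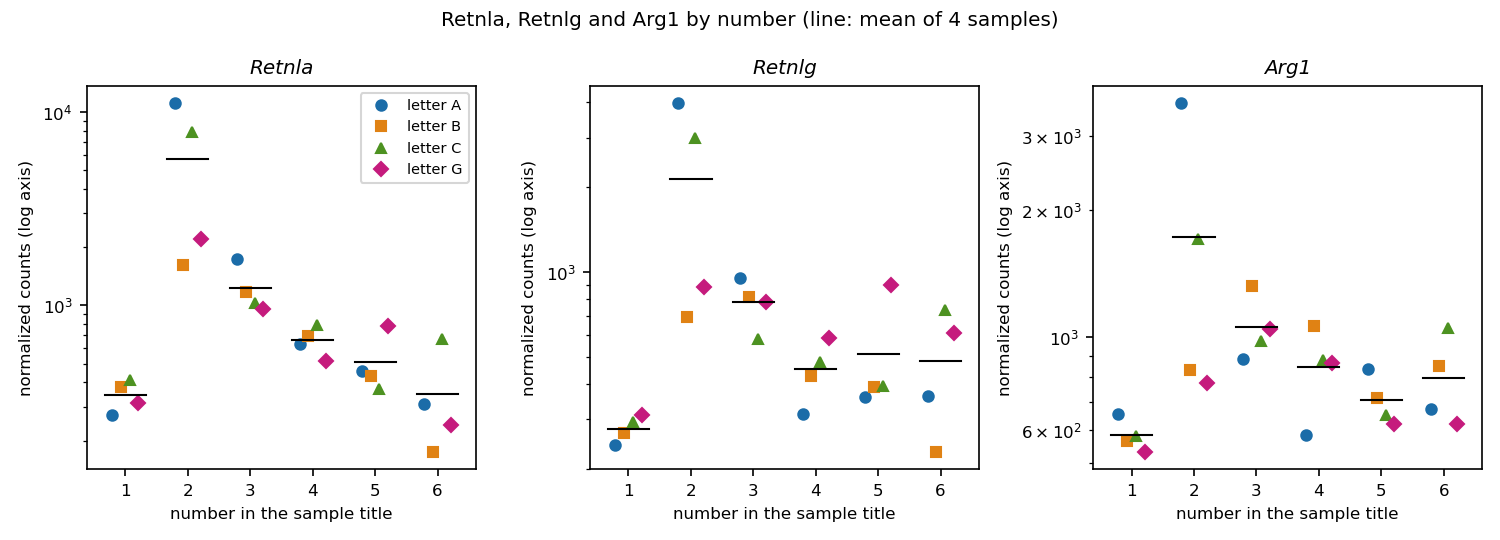
Normalized counts (log axis) of Retnla, Retnlg and Arg1 against the sample number, with 1 point for each sample, coloured by letter, and a line at the mean of the 4 samples. Retnla spans 1620 in B2 to 11055 in A2 within number 2, and all 4 of its number 2 points lie above the other samples of their own letter.

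Genes that followed Retnla most closely across the 24 samples, among 21922 genes with a mean of at least 10 normalized counts, were Slc26a4 (r = 0.925), Slamf8 (r = 0.922), Hk2 (r = 0.916), Retnlg (r = 0.916) and Tmem8 (r = 0.916). Slc26a4 encodes the anion exchanger pendrin, Slamf8 a surface receptor of myeloid cells and Hk2 a hexokinase of glycolysis. Over the 20 samples not numbered 2 their r lay between 0.760 for Retnlg and 0.850 for Slc26a4. With the letter mean subtracted from each sample, the closest 3 were Tmem8 (r = 0.944), Retnlg (r = 0.933) and Slamf8 (r = 0.931).

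Arg1 encodes arginase, which turns arginine into ornithine and urea. It held 3595 normalized counts in A2 and 1708 in C2, and the other 22 samples lay between 532 and 1319. B2 and G2, at 833 and 776, lay inside that range, and in B and G the highest sample was the one numbered 3 (1319 and 1046). The mean of number 2 was 1728 ± 1316 (SD, n = 4), and the log2 difference from the other numbers was 0.87 (SE 0.24). Number 1 held the lowest Arg1 in 3 of 4 letters, at 532 to 656 normalized counts. Arg1 followed Retnla with r = 0.797 over 24 samples and r = 0.505 without A2 and C2. Its paralog Arg2 had a log2 fold change of 0.18 in number 2 (limma adjusted p = 0.592).

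Nos2, named after its values were seen, encodes the inducible nitric oxide synthase, which also uses arginine and marks classical activation. It held 16688 normalized counts in A2 and 4936 in C2. B2 and G2, at 1458 and 645, lay within the range of the other samples, 578 to 1662. Nos2 rose in number 2 by 1.81 (SE 0.46, limma adjusted p = 0.00695), with an adjusted p of 0.0692 in the F test over the numbers. Nos2 correlated with Arg1 at r = 0.706 and with Retnla at r = 0.670 over 24 samples, and at r = -0.239 and r = -0.100 without A2 and C2.

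Markers of other cells differed in number 2 as well. The 5 neutrophil markers summed to 31890 normalized counts in A2, 20170 in C2, 8146 in B2 and 5177 in G2, and to 2815 to 16520 in the other samples; 1 of the 5 rose in number 2. The order of these 4 samples is that of Arg1, and in Retnla only B2 and G2 trade places. This order is not particular to the neutrophil markers. Nos2 and the T cell sums (9076 in A2, 7158 in C2, 6304 in B2 and 5766 in G2) share it, and the macrophage and adipocyte sums do not. The 5 T cell markers summed to 5766 to 9076 in number 2 and 3617 to 7124 elsewhere, and all 5 rose, beside 11.5% of all genes that rose. The 6 macrophage markers summed to 133400 to 213600 in number 2, 182100 to 220800 in number 3 and 118200 to 198000 elsewhere, and 2 of 6 rose in number 2. Marco, a scavenger receptor of alveolar macrophages, was at 0 to 9.72 normalized counts in every sample. The 6 adipocyte markers summed to 1187 to 16390 in number 2 and 973 to 9688 elsewhere, and 1 rose. All 4 endothelial and all 4 alveolar type 1 markers fell in number 2, where 10.3% of all genes fell. The 4 alveolar type 2 markers summed to 1181000 to 1562000 in number 2 and 1049000 to 1557000 elsewhere, and 2 rose in number 2. Of the same 4, 2 rose in number 3, where 4.98% of all genes were called, and 2 fell in number 6, where 4.02% fell. Over the 24 samples Retnla correlated with the alveolar type 1 markers at r = -0.822 and with the endothelial markers at r = -0.7. Its r was 0.624 with the alveolar type 2, 0.62 with the neutrophil, 0.593 with the macrophage and 0.523 with the T cell markers. The part of these cells in the levels of Retnla and Arg1 was not tested.

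Il33 encodes the alarmin IL-33, held in the nuclei of epithelial and endothelial cells and released on damage. Its levels ran against those of Retnla. Number 2 held 8193 normalized counts in A2, 10021 in B2, 11676 in C2 and 7509 in G2. A2 and G2 were the lowest of all 24 samples, whereas C2 lay near the middle of the range. Number 5 was highest in A, B and C, at 13783, 13465 and 14495, and number 6 was highest in G, at 13282. Number means ran from 9350 ± 1879 in number 2 and 10360 ± 812 in number 3 to 13320 ± 1269 in number 5 (SD, n = 4), a narrow range beside that of Retnla. The log2 difference of number 2 from the others was -0.38 (SE 0.07). Il33 and Retnla correlated with r = -0.671 over 24 samples and r = -0.734 without A2 and C2. Across the 24 samples the level of Il33 correlated with the alveolar type 1 markers at r = 0.767, the endothelial markers at r = 0.553, the red cell markers at r = 0.608 and the alveolar type 2 markers at r = -0.671. All 4 alveolar type 1 and all 4 endothelial markers fell in number 2, and their part in the Il33 level was not tested. Letter means of Il33 lay between 11060 ± 1913 in G and 12180 ± 1691 in C (SD, n = 6).

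Tslp, the alarmin that acts through the receptor chain Il7r, was low and showed little order. It ran from 25.4 normalized counts in B3 to 77.7 in G4, and no number stood clear of the rest. Letter B averaged 43.4 ± 11.7 and the other letters 53.6 ± 14.5 (G) to 55.2 ± 12.4 (C) (SD, n = 6). Il25, another alarmin, held 5.0 to 34.9 normalized counts, the highest in C2, and was not called over the numbers (limma adjusted p = 0.791).

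Receptors for these signals each had an order of their own. Il1rl1 encodes ST2, the receptor of IL-33, found on mast cells, innate lymphoid cells and T cells and also as a soluble decoy. It was highest in number 1, at 423 normalized counts in A1, 282 in B1, 288 in C1 and 297 in G1, and was the highest of its letter in A, B and G. In C the sample numbered 2 was higher, at 318. Number 6 was lowest in A, B and C, at 120, 114 and 162, while G6 held 214. Number means ran from 323 ± 67.3 in number 1 to 153 ± 46.0 in number 6 (SD, n = 4). Receptor and ligand, Il1rl1 and Il33, correlated with r = -0.162 over 24 samples.

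Il4ra encodes the chain shared by the IL-4 and IL-13 receptors, and of the 10 genes it had the largest share of variance between letters, 29.5%. Letter A held 8685 to 11350 normalized counts, B 10127 to 15585, C 8089 to 14176 and G 9639 to 15584. On average A held 9923 ± 1005, B 12520 ± 2388, C 11510 ± 2502 and G 13390 ± 2312 (SD, n = 6). A was the lowest and G the highest, and their ranges overlapped through G2, which held 9639. Of the 6 G samples, 5 lay above every A sample. The log2 difference of G from A was 0.42 (SE 0.14).

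Il13ra2 encodes a decoy receptor that binds IL-13. It was lowest in C6 and A6, at 4.68 and 8.31 normalized counts, but B6 and G6, at 28.1 and 44.7, lay within the range of the other numbers, 17.9 to 84.3. The highest sample was A5. Il5ra encodes the IL-5 receptor chain of eosinophils and B-1 cells. It was near the floor throughout, listed at 0 in B2 and C2, at 1.96 in A2 and 1.11 in G2, and at most 16.6, in C6. Samples of other numbers were as low, with 0.00205 in A3, 0.0269 in B4 and 0.0319 in C4. The number 6 samples held 5.82 to 16.6 and the number 2 samples up to 1.96, and these numbers did not overlap. The 4 eosinophil markers analysed here summed to 1500 to 1834 in number 2 and 1130 to 1552 in number 6. Of the 4, none was called in number 2 by limma (0 unadjusted), where 21.8% of all genes were. In number 6, 1 rose and 1 fell, where 4.11% of all genes rose and 4.02% fell.

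**Figure D3:**
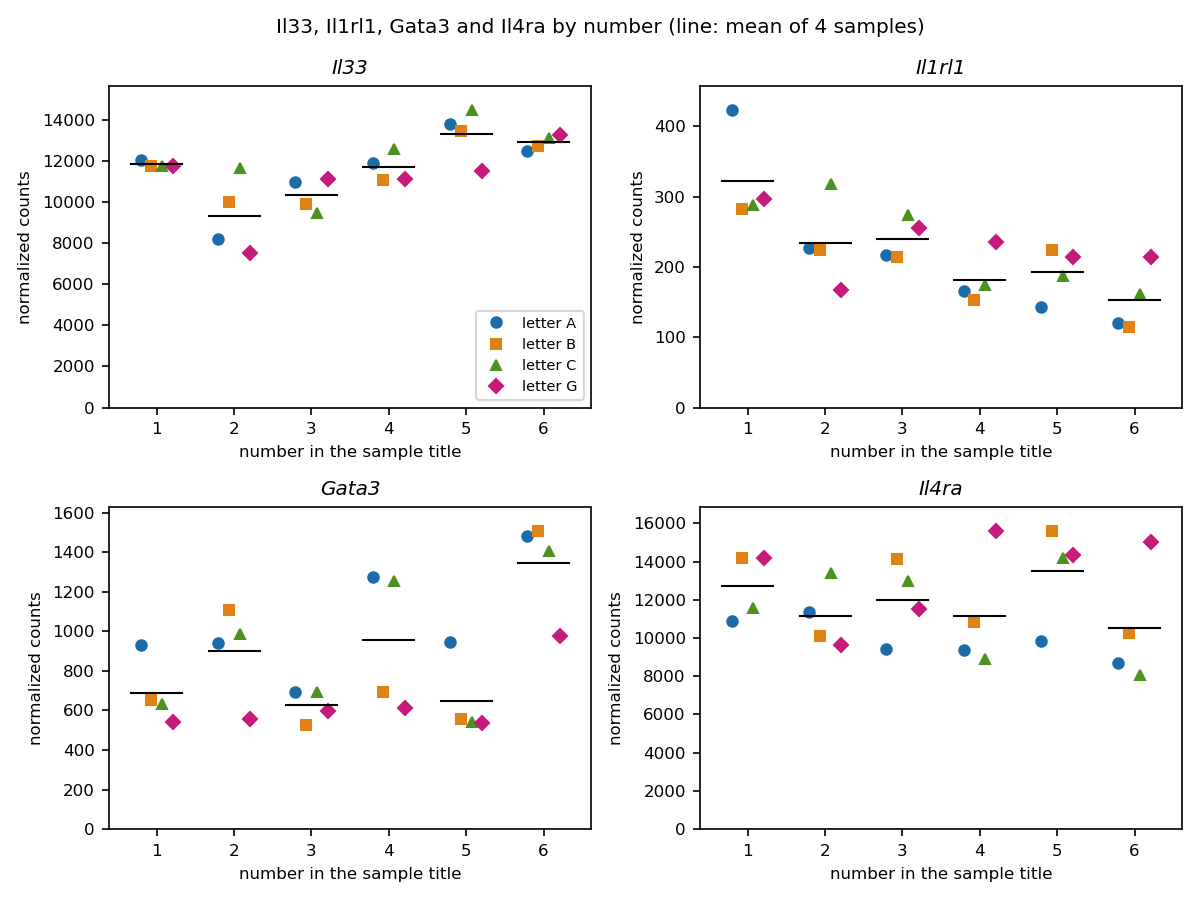
Normalized counts (linear axes from 0) of Il33, Il1rl1, Gata3 and Il4ra against the sample number, with 1 point for each sample, coloured by letter, and a line at the mean of the 4 samples. Il1rl1 is high in number 1, Gata3 in number 6 in all 4 letters, and the points of Il4ra overlap across numbers with letter A mostly low.

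Gata3 encodes the transcription factor that specifies T helper type 2 cells and group 2 innate lymphoid cells, and other T cells carry it too. Number 6 was the highest of its letter in all 4 letters, at 1484 normalized counts in A6, 1506 in B6, 1408 in C6 and 977 in G6. A4 and C4, at 1273 and 1255, and also B2 and C2, lay above G6, so number 6 overlapped the others. The mean of number 6 was 1344 ± 248 and the means of the other numbers lay between 627 ± 81.8 and 958 ± 355 (SD, n = 4). G was the lowest letter, at 637 ± 169, and A the highest, at 1045 ± 284 (SD, n = 6), with B and C between and overlapping ranges. Without G6, the G samples spanned 537 to 611, a narrow band. Gata3 and Il4ra ran in opposite order, with r = -0.673 over 24 samples. T cell markers summed to 5147 to 7124 normalized counts in number 6 and 3617 to 9076 in the others, and 3 of the 5 rose in number 6, where 4.11% of all genes rose. All 5 T cell markers also rose in number 2, where 11.5% of all genes rose. There the geometric mean of Gata3 was 1.1 times that of the other numbers. Over the 24 samples Gata3 correlated with the T cell markers at r = 0.387 and with the red cell markers at r = 0.59. The part of T cells and red cells in the Gata3 level was not tested.

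Clca1 encodes a secreted protein of mucous (goblet) cells that IL-13 induces in airway epithelium. Leaving aside Il5ra, which is listed at 0 in some samples, it had the widest range of the 10 genes, 231-fold, from 22.1 normalized counts in B6 to 5096 in A4. High samples came from several numbers and from every letter: A4 with 5096, G5 with 3657, B4 with 2556, A2 with 2324, A6 with 1676, C1 with 1377 and G2 with 1173. The other 17 samples held 771 or less. Number 3 was the lowest by mean, at 146 ± 192, and number 4 the highest, at 2053 ± 2296 (SD, n = 4), but C4 and G4 held 360 and 199, so the place of number 4 rests on A4 and B4. By letter, A averaged 1647 ± 1907, B 667 ± 964, C 356 ± 516 and G 895 ± 1418 (SD, n = 6), an SD above the mean in each.

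Several other mucous cell genes ran with Clca1 across samples, and some listed genes ran with it less. Muc5b, the airway mucin gene, correlated with r = 0.946 and Agr2, a chaperone for mucin folding, with r = 0.865; both were singled out after their values were seen. Muc5ac, the inducible mucin, correlated with r = 0.718 and Spdef, a transcription factor of goblet cells, with r = 0.591. Foxa3, Fcgbp and Itln1, listed with these genes as epithelial targets, correlated less, with r = 0.408, 0.422 and -0.0832. Itln1 held at most 7.04 normalized counts. Scgb1a1, the secretoglobin of club cells, correlated with r = 0.0336. All are over 24 samples in which numbers share features. Retnla and Clca1 correlated with r = 0.299. A4 and B4, with the skeletal muscle markers, are among the high samples, and Clca1 correlated with Acta1, a gene of skeletal muscle, at r = 0.598 and with Adipoq, an adipocyte gene, at r = 0.597. C1 and G5 were high in Clca1 with at most 498 normalized counts over the oesophagus markers and at most 1978 over the muscle markers. Ckm, another gene of skeletal muscle, held 134 in C1 and 310 in G5, where only A4 and B4 held more than G5. Adipoq held 25.2 in C1 and 154 in G5. The part of tissue other than lung was not tested.

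**Figure D4:**
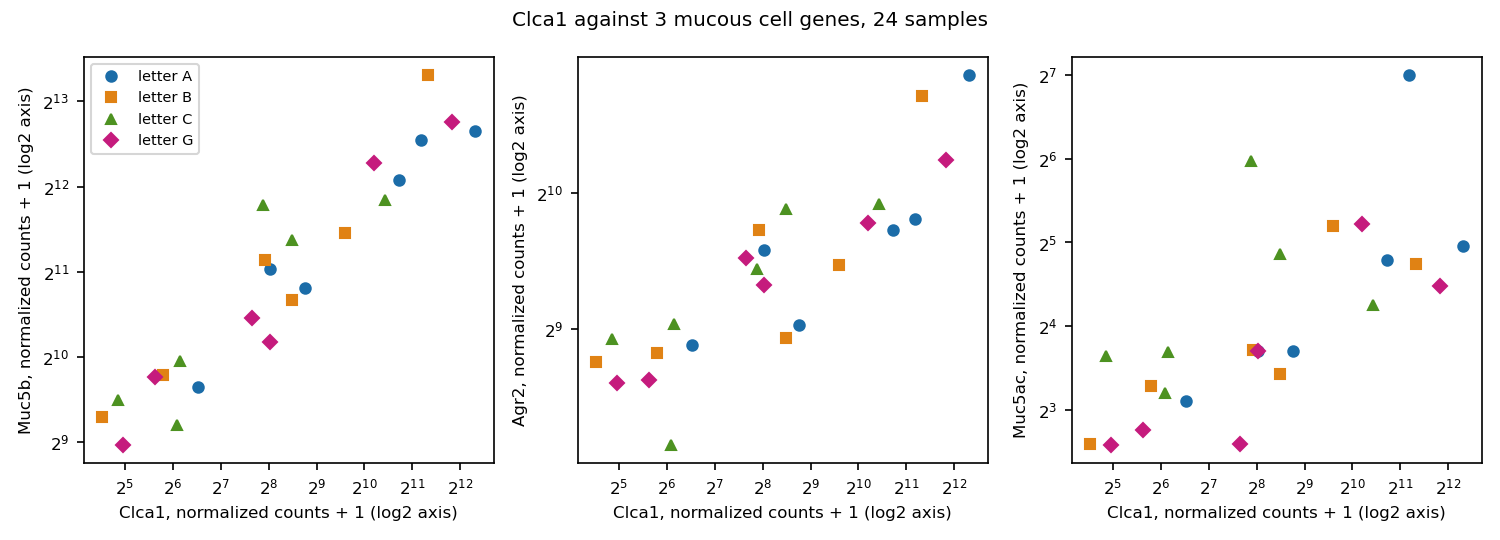
Log2(value + 1) of Clca1 (horizontal axis) against that of Muc5b, Agr2 and Muc5ac (vertical axes), with 1 point for each of the 24 samples, coloured by letter. The points rise together, most tightly for Muc5b (r = 0.946).

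The rest of the pathway was read from lists of 55 genes, of which 52 were analysed here. They are genes of the RELM family, alarmin receptors, cytokines, receptor signalling, macrophage and epithelial targets and lymphocytes. Over the letters, limma called 0 of 52 in the F test (2 unadjusted) and 0 in every pair, with 8 unadjusted in G against A and at most 4 in any other pair. That model left out the number. With the number as a block, the pathway genes Alox15 and Cish were called in G against A, where 1.27% of all genes were. Over the numbers, 32 of 52 passed the F test, where 31.5% of all genes did. In number 2, 22 rose and 3 fell, where 11.5% of all genes rose and 10.3% fell, and the median log2 fold change of the 52 was 0.393 against 0.00503 for all genes. Without A2, 18 rose where 11.5% of all genes were called in either direction, and without both A2 and C2, 12 rose and 2 fell where 9.60% were. The lists were chosen with earlier results of these data known.

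Cytokines that give the pathway its name were near the floor. Il4 held 0.00185 to 7.19 normalized counts and Il13 0 to 10.9, the highest in A2, and neither was called over the numbers (limma adjusted p = 0.906 and 0.895). No cytokine of the 3 analysed here passed in number 2 (1 unadjusted), where 21.8% of all genes did. None of the 4 alarmin and receptor genes passed there either (0 unadjusted). The third cytokine, Areg, was not near the floor, at 39.5 to 859 normalized counts, the highest in A2. Of the 3 cytokines, 1 passed the F test over the numbers, where 31.5% of all genes did, and it was neither Il4 nor Il13. Il7r, the chain of the IL-7 and TSLP receptors, rose in number 3 by 0.59 (SE 0.10, limma adjusted p = 0.00193) and had a log2 fold change of -0.01 in number 2.

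Of 11 receptor signalling genes, 6 rose in number 2 and 0 fell, where 11.5% of all genes rose and 10.3% fell. Il2rg, the common gamma chain used by the IL-4 receptor, rose by 0.50 (SE 0.06, limma adjusted p = 8.4e-06), from 1164 to 1659 normalized counts in other samples to 1730 to 2242. Its values in number 2 lay above all others. Jak3, the kinase bound to that chain, rose by 0.69 (SE 0.08, adjusted p = 1.07e-05) and Tyk2, a related kinase, by 0.26 (adjusted p = 0.000503). Csf2rb, the beta chain shared by the IL-3, IL-5 and GM-CSF receptors, rose by 1.52 (SE 0.19, limma adjusted p = 1.46e-05), with 3301 normalized counts in A2 and 1126 in G2. Stat6, the transcription factor that carries the IL-4 and IL-13 signal, had a log2 fold change of -0.02 in number 2 and was not called over the numbers (adjusted p = 0.055).

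Macrophage targets split. Of 12, 7 rose and 2 fell in number 2, where 11.5% of all genes rose and 10.3% fell. Clec10a, a lectin of alternatively activated macrophages and dendritic cells, rose by 1.43 (SE 0.14, limma adjusted p = 9.55e-07), at 850 to 1456 normalized counts against 231 to 797 elsewhere with no overlap. The chemokine genes Ccl22 and Ccl17, whose products attract cells bearing CCR4, rose by 2.04 (SE 0.28, adjusted p = 3.1e-05) and 1.17 (SE 0.23, adjusted p = 0.00103). Irf4, a transcription factor of alternative activation and of lymphocytes, rose by 1.25 (SE 0.17, adjusted p = 3.67e-05). Mrc1, the mannose receptor, had another order and rose in number 3 by 1.23 (SE 0.15, limma adjusted p = 0.000113), at 24195 to 33463 normalized counts against 7980 to 20336 elsewhere, and its log2 fold change in number 2 was -0.37 (adjusted p = 0.0916). Retnla and Mrc1 correlated with r = 0.0609 over 24 samples and r = 0.712 over the 20 not numbered 2. Chil3, a chitinase-like gene used with Retnla and Arg1 as a marker in mouse, held 0.00267 to 14.6 normalized counts and was not called (adjusted p = 0.107).

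Alox15, the lipoxygenase of alternatively activated macrophages and eosinophils, fell by 1.64 in number 2 (SE 0.38, limma adjusted p = 0.00327) and rose in number 4 by 1.85 (adjusted p = 0.00698). It held 48612 normalized counts in A4, 49083 in B4 and 40089 in C4, and 1949 in G4. Number 5 was second in the same letters, at 25889, 18724 and 23405, and G5 held 2867. The G samples spanned 1466 to 4128 and so lacked the order seen in A, B and C; that difference was not tested. The contrast of number 4 rests on few samples: 0 pathway genes, Alox15 among them, were called without B4, where 1.25% of all genes were, and also 0 without A4 and B4, where 0.0457% were.

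Of the epithelial targets, 3 of 11 rose in number 2 and 0 fell, where 11.5% of all genes rose and 10.3% fell. Muc5ac rose by 2.16 (SE 0.36, limma adjusted p = 0.000236), at 126 normalized counts in A2, 62.03 in C2 and at least 35.8 in B2 and G2, against 4.99 to 30.1 elsewhere. Without A2 and C2 its F test over the numbers was lost (adjusted p = 0.0545). Spdef rose by 0.41 (SE 0.08, adjusted p = 0.00134). Postn, which encodes the matrix protein periostin, rose in number 1 by 0.66 (SE 0.06, limma adjusted p = 1.51e-06), at 53767 to 57847 normalized counts against at most 41138 in other samples. The 5 fibroblast markers summed to 166900 to 220700 in number 1 and 69440 to 188400 elsewhere, and their part in the Postn level was not tested.

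Of 8 lymphocyte genes, 5 rose and 1 fell in number 2, where 11.5% of all genes rose and 10.3% fell. Icos, a costimulatory receptor, rose by 1.19 (SE 0.20, limma adjusted p = 0.000233), Id2, a regulator of innate lymphoid cells, by 0.49 (adjusted p = 0.00139) and Bcl11b, a T cell transcription factor, by 0.38 (adjusted p = 0.000422). The chemokine receptor gene Ccr8 rose in number 2 by 1.55 (SE 0.34, limma adjusted p = 0.00215) and fell by 2.67 in number 1 (adjusted p = 3.5e-05), where it held 0.880 to 5.06 normalized counts against at least 6.83 in every other sample. Ccr4 rose in numbers 2 and 6, by 0.76 (adjusted p = 0.00956) and 1.06 (adjusted p = 0.00309), and fell by 1.76 in number 1 (adjusted p = 1.36e-05). In number 1 as a whole 4 pathway genes rose and 10 fell, where 5.62% of all genes rose and 6.25% fell, and 3 rose and 5 fell without A1, where 6.25% of all genes were called. In number 3, 5 of 52 were called beside 4.98% of all genes, in number 4 it was 4 beside 4.74%, in number 5 it was 3 beside 1.97% and in number 6 it was 6 beside 8.13%. Single samples decided many of these, with the fewest genes overall called as follows: 2 pathway genes were called in number 3 without C3, 0 in number 4 without B4, 0 in number 5 without B5 and 2 in number 6 without B6. Of the T cell markers, 5 of 5 rose in number 2 and 3 of 5 in number 6, where 4.11% of all genes rose. They summed to 3617 to 4333 normalized counts in number 1. Their part in these calls was not tested.

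**Figure D5:**
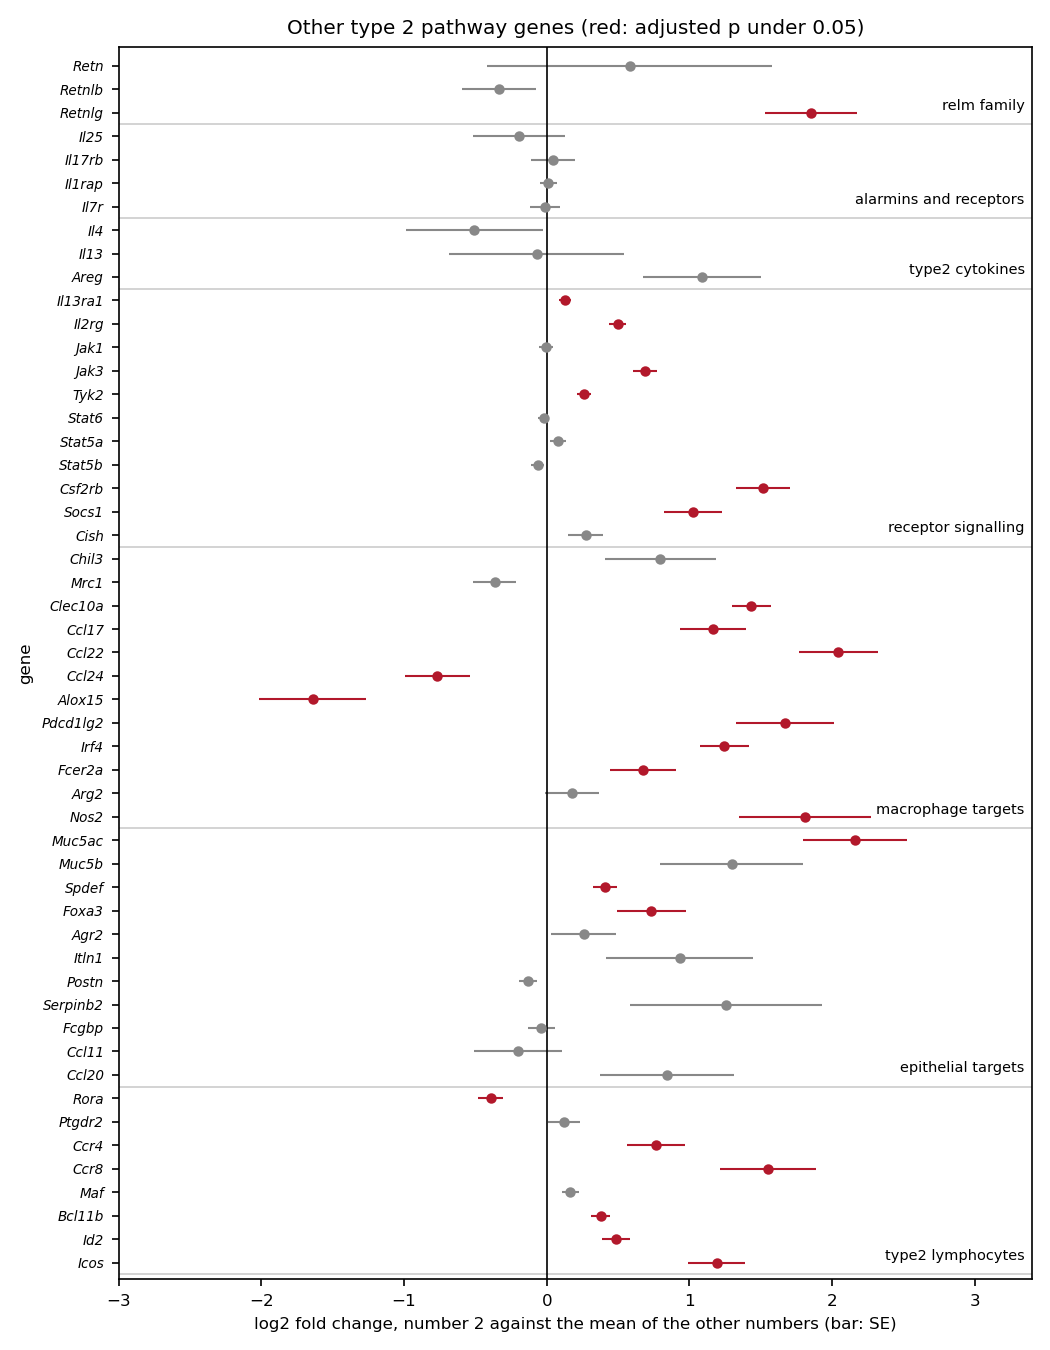
Log2 fold changes of pathway genes in number 2 against the mean of the other numbers, with bars for the SE from the limma fit; red marks an adjusted p under 0.05. Of the 52 genes, 22 lie to the right of 0 in red and 3 to the left in red.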

How the data were processed

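Lung mRNA of 24 samples was sequenced. Per the labels' protocols, mRNA was isolated and sequenced on Illumina. Per the submitters' processing notes, STAR and the build GRCm38 were used, with no role or version given; the counting, strand setting and normalization are not given in the sources used here. The authors deposited a table of signal values, normalized read counts per gene that are not whole, for 30667 genes, so tests for counts were not used and the branch of the design for normalized values was followed. The depth is unknown and no counting interval is given.

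From this table log2(value + 1) was fitted with limma-trend (limma 3.58.1, R 4.3.3) for the genes averaging 0.5 or more, which were all 30667. One model had the 4 letters, and another the letter and the 6 numbers. P-values were two-sided and adjusted by Benjamini-Hochberg over all genes in each test, with a threshold of 0.05. Adjusted p-values in the text are limma's. On this scale the change of a low gene is understated. The fitting was tested on simulated data.

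The 10 genes and all lists (7 of pathway genes, 15 of cell markers) were chosen with earlier results of these data known. Named pathway genes are the 20 with the smallest p among those past the numbers F test, Il4, Il5, Il13, Il25, Stat6, Retn, Retnlb, Retnlg, Chil3, Mrc1 and Muc5ac, and the genes most like Retnla by Pearson r; Il5 was not analysed here. Arg2, Nos2, Muc5b, Agr2, Areg, Cish, Foxa3, Fcgbp, Itln1 and the marker genes Scgb1a1, Acta1, Ckm, Adipoq and Marco were added after their values were seen. Marker lists for mast cells and basophils, mesothelium and red cells were summed too: in number 2, 1 of 6, 0 of 4 and 4 of 5 fell and none rose. Of all genes, 10.3% fell and 11.5% rose in number 2.

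Whether equal numbers pair samples was examined by correlating what remained after subtracting the letter means, for the 21922 genes averaging 10 or more. All 6 same-number pairs exceeded 0.1 in B against A (0.169 to 0.59) and C against B (0.127 to 0.596), which rests on the data, as the labels are silent on it. In the other pairs of letters 4 or 5 of 6 did. Promoters are RefSeq sequences on GRCr8, matched by symbol; 9 of the 10 symbols were found among rat RefSeq symbols. Alternatives were other scalings, pseudocounts, filters, weights, covariates and left-out samples.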

Additional observations from a re-analysis of the deposited data

Results flagged for a closer look

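Within each letter of 6 samples, a sample was picked out where its gap to the nearest other sample was over Dixon's critical share of the letter's range for 6 values. This held for 20 of 80 sets of 6 values, where chance gives about 1 in 20, or 4.0; since the genes were chosen with these values known, no excess is read from this. Samples numbered 2 gave 10 of the 20, and A2 gave 5. Values are normalized counts, each followed by the nearest other sample of its letter.

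Retnla stood out at 11055 in A2 (nearest 1742), 7887 in C2 (1025) and 2212 in G2 (962), and Arg1 at 3595 in A2 (885). Retnlg stood out at 3970 in A2 (951) and 3004 in C2 (733). Muc5ac reached 126 in A2 (30.1) and 62.03 in C2 (28.0), Il13 10.9 in A2 (4.02) and Il25 34.9 in C2 (16.1).

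Outside number 2, Il1rl1 stood out at 423 in A1 (227), Gata3 at 977 in G6 (611) and Il5ra at 16.6 in C6 (5.09). Clca1 stood out at 2556 in B4 (771), 1377 in C1 (360) and 3657 in G5 (1173). Mrc1 stood out at 33463 in A3 (13831) and 26018 in G3 (14894). Retn, near the floor, stood out at 34.3 in B5 (5.02) and 9.77 in G5 (3.02).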

How the results depend on the processing

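Counts for the 10 genes, which were chosen on these values, are given for stability only. Over the 4 letters, 0 of the 10 genes and 0 of 52 pathway genes were called in the F test under each alternative and each of the 24 fits that left out a sample. Of all genes, 2 were called, and 1 after quantile normalization, 75th percentile scaling, leaving out A2 and C2, all samples numbered 2, or A2, A4, B5 and G5 (the 3 sets of samples were chosen after seeing the data), and 1 to 2 when single samples were left out. The 6 letter pairs gave 5 calls over all genes, 3 without the samples numbered 2 and 3 without A2, A4, B5 and G5, and 4 to 7 when single samples were left out.

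With the replicate block, the number as a block, the F test gave 12 genes and the pairs 404, of which 391 (1.27% of genes) in G against A, 1 of the 10 genes and 2 pathway genes. The 1 was Gata3, and the pathway genes were Alox15 (limma log2 difference -2.08, adjusted p = 0.0155) and Cish (0.54, adjusted p = 0.0489), all in G against A, where samples share only a number. In B against A and C against B, where all 6 same-number pairs exceeded it, the block changed no call among the 10 genes and the pathway genes.

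Over the 6 numbers, leaving out single samples gave 8528 to 10210 genes, 4 (without B1) to 7 (without G6) of the 10 and 27 to 34 pathway genes. Over the 6 number contrasts it gave 13814 to 18189 calls over all genes, 7 (without A6) to 12 for the 10 genes, and 49 to 66 for pathway genes, against 57. In the F test over the numbers, all 20 named pathway genes that passed kept their call in these 24 fits; in the contrasts calls were lost, such as Alox15 in number 4 without B4. Of the 10 genes, 4 passed in number 2 beside 21.8% of all genes, and 2 without C2 beside 19.2%. In number 1 it was 2 beside 11.9%, and 0 without A1 beside 6.25%. In number 6 it was 4 beside 8.13%, and 1 without B6 beside 2.44%. These counts are not read as a result. Stat6 passed in 9 of 34 alternatives and Retnlb in 5; the cause was not tested. Single samples moved the share of genes called, here at its lowest for each number: number 2 from 21.8% to 11.5% without A2, number 1 from 11.9% to 6.25% without A1, number 4 from 4.74% to 1.25% without B4, number 5 from 1.97% to 0.00652% without B5, number 6 from 8.13% to 2.44% without B6, and number 3 from 4.98% to 1.77% without C3. The filter of none removed no gene. Depth is unknown, and Il4, Il13, Il5ra and Chil3 lie near the floor.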
